A study of Mus musculus with 12 samples.

Results

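The high-5hmC regions are the stretches of the genome where the control mouse retina carried most 5-hydroxymethylcytosine (5hmC) among the regions that differed upon loss of the TET enzymes. They are the autosomal regions of the authors' bACE-seq list whose mean 5hmC level was at least 35% in Cre- retinas and below 50% of that level in Tet tcKO retinas. The rule selected 4575 of the 582432 autosomal regions (0.785%), and the whole list, with the sex chromosomes, holds 592906. Both levels used by the rule come from the comparison that made the list. They are therefore described here and not tested, and the same holds for every other 5hmC value of these regions.

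Whole retinas were taken at postnatal day 21 (P21). Cre- animals were Cre-negative mice of genotype WT on strain C57 BL/6J. Tet tcKO animals carried loxp/loxp alleles of Tet1, Tet2 and Tet3 and the Chx10-Cre-GFP transgene, which acts in retinal progenitors and is known to be mosaic. Per the study's methods, Cre+ animals were bred together to reduce this, and any cells that escaped deletion were not analysed here. Per the study's methods, each sample pooled the retinas of more than 1 animal. Each genotype had 3 bACE-seq libraries, which read 5hmC alone, and 3 libraries of whole-genome bisulfite sequencing (WGBS), which reads 5-methylcytosine (5mC) and 5hmC together. The lists hold 1 mean per genotype for each region, with no read counts, so the depth behind a level is unknown and no error between libraries or test across them could be given. In whole retina, a change in the mix of cell types and a change of level within a cell cannot be told apart.

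TET enzymes oxidise 5mC to 5hmC, which can be oxidised further and replaced by unmodified cytosine, or can persist as a mark of its own. In neurons 5hmC is abundant and lies mostly within genes, where its level is known to follow transcription. Photoreceptors, above all rods, make up most cells of the mouse retina.

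The sequences below show what such regions look like: the middle 300 bases of 5 regions among those with the highest Cre- level and at least 10 CpGs, followed by a region beside Crx and another beside Sag, both chosen after their values were seen because these are photoreceptor genes. All are read from the plus strand of GRCm38 (mm10, RefSeq), and capitals mark CpGs, the sites at which 5hmC was measured.
Sbno1 intron, chr5:124422536-124422835: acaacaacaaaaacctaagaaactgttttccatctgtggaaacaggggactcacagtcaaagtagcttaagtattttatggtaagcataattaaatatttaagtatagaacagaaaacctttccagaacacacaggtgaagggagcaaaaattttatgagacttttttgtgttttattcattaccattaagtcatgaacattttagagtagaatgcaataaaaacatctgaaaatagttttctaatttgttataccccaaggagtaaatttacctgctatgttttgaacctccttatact
1110051M20Rik intron, chr2:91437778-91438077: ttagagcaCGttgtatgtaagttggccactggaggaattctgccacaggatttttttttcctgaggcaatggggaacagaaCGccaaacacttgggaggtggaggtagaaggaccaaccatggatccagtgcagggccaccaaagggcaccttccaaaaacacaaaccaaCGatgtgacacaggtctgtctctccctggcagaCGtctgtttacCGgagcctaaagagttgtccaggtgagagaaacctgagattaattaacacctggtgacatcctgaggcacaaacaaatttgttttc
Celf2 intron, chr2:6734319-6734618: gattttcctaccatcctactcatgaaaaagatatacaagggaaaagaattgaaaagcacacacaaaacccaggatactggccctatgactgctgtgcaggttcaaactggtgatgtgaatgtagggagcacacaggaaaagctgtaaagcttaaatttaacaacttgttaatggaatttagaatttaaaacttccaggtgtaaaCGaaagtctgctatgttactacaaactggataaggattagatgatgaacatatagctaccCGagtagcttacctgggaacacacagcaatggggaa
Cdh6 intron, chr15:13063517-13063816: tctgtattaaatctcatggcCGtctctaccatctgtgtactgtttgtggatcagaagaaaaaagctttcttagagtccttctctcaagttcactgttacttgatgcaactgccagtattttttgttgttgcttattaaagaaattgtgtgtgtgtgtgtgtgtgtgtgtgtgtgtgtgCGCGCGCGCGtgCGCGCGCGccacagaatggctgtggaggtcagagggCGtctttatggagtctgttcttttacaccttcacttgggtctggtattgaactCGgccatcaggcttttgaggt
Setd2 intron, chr9:110543095-110543394: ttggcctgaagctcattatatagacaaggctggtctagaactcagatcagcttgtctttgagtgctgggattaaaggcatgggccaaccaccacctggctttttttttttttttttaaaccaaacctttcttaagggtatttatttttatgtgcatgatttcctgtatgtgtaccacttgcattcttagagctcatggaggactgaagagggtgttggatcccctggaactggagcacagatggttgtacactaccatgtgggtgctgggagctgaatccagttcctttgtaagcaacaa
Downstream of Crx, chr7:15861579-15861878: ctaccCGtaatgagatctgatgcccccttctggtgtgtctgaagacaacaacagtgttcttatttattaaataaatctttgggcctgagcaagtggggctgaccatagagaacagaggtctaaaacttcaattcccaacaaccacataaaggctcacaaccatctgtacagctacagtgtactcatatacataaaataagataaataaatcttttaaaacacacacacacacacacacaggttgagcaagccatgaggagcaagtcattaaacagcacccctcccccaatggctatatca
Between Sag and Dgkd, chr1:87850830-87851129: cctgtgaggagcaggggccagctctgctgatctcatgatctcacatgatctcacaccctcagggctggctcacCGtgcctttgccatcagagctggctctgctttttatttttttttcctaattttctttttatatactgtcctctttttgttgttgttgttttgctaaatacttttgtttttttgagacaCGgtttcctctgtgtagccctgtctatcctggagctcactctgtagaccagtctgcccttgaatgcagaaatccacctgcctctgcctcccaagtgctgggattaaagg

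CpGs were few in most of these windows. The middle of the regions in Sbno1 and Setd2 held 0 CpGs, that in Celf2 held 2 and that downstream of Crx held 1. The window in Cdh6 was of another kind, with 12 CpGs, many of them in a run of short repeated units. Over its full length this region held 4.62 CpGs per 100 bp, against 0.63 in Sbno1, 0.59 in Celf2 and 0.52 in Setd2. It also kept 46.5% of its 5hmC in Tet tcKO, more than the median of all high-5hmC regions. Repeats masked 43.7% of its bases, and the part of this in its values was not tested.

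In Cre- retinas the high-5hmC regions had a median level of 37.6%, with a lowest of 35.0009% and a highest of 60.6%. Most lay close above the minimum: 3464 (75.7%) were below 40%, 243 reached 45% and 36 reached 50%. In Tet tcKO the median was 9.06%, and the middle 80% of the regions ranged from 6.11% to 12.3%. The median region kept 23.8% of its Cre- level, and the middle 80% kept from 15.8% to 31.9%. Across the regions, the levels of both genotypes were weakly related (Spearman's rho = 0.20 over 4575 regions, which share libraries and neighbourhoods and were chosen on both levels).

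To show where the high-5hmC regions differ from the rest, they were set beside the 38652 autosomal regions of 25 to 35% in Cre- that also kept less than 50%, and beside all 577663 other losses, which include that class. A lower 5hmC level in Tet tcKO was the rule of the list: 582238 of the 582432 autosomal regions (100% to 3 digits) were lower. The median share kept was 24.1% in the class of 25 to 35% and 22.6% in all other losses, at median Tet tcKO levels of 6.82% and 3.08%. The paper estimates that about 2% of unmodified cytosines went unconverted, which raises the share kept more where levels are lower. These shares were not corrected for it, so they do not show that the sets kept a like fraction. The change had a median of -28.8 points in the high-5hmC regions, where the rule fixes a large fall, against -21.4 and -10.7 points. Weighted by CpGs, the levels of the high-5hmC regions were 37.8% in Cre- and 9.27% in Tet tcKO, over 61353 CpGs and 6.19 Mb.

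**Figure D1:**
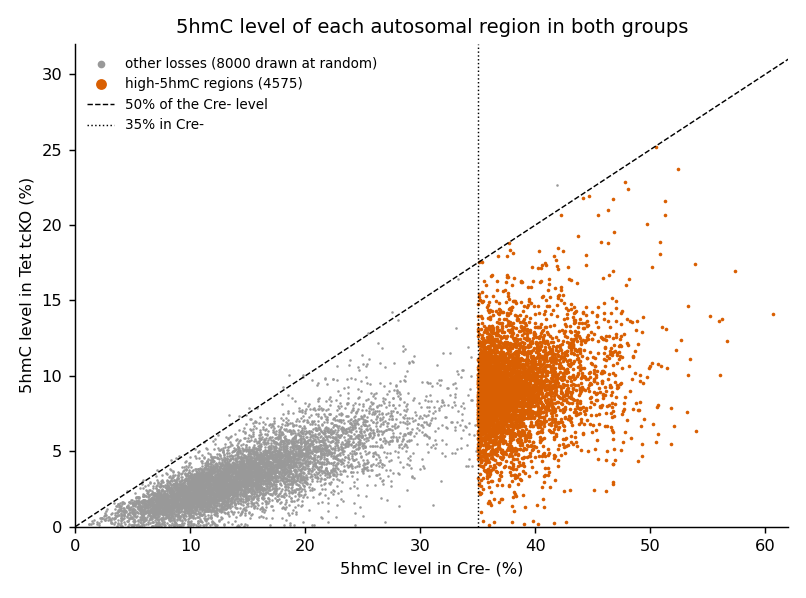
The 5hmC level in Cre- (horizontal axis, %) against that in Tet tcKO (vertical axis, %) for each of the 4575 high-5hmC regions (orange) and 8000 other losses drawn at random (grey). The dotted line is the minimum of 35%, the dashed line is 50% of the Cre- level, and the orange points lie mostly near 9.06% in Tet tcKO whatever their Cre- level.

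Among regions with at least 10 CpGs, the highest Cre- level was 50.5% in an intergenic region 100318 bp from Tmem18. It also had the highest Tet tcKO level of all high-5hmC regions, 25.2%. The next was an intron of Sbno1, a strawberry notch homologue (chr5:124421728-124423642, 12 CpGs), at 48.8% in Cre- and 8.20% in Tet tcKO. Those that followed had Cre- levels from 47.2% to 48.5%. They lay in introns of 1110051M20Rik, of Celf2, an RNA-binding splicing regulator, of the cadherin Cdh6 and of Setd2, the methyltransferase of histone H3 lysine 36. Further ones lay in introns of the autophagy gene Rb1cc1 and the adaptor subunit Ap1b1, and in a coding exon of the oxidase Pipox. Apart from the regions near Tmem18 and in Cdh6, these kept from 16.8% (Sbno1) to 28.3% (Celf2). Among high-5hmC regions of all sizes, the highest Cre- level was 60.6% over 4 CpGs in an intron of Lpgat1, a region named after its values were seen.

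The longest regions had Cre- levels from 35.3% to 39.3%. An intronic region of Gtf2ird1, of the TFII-I family of transcription regulators, spanned 23082 bp and 376 CpGs (chr5:134430441-134453522) at 35.4% in Cre- and 9.58% in Tet tcKO. In Hk1, the hexokinase that starts glycolysis, a region of 17488 bp and 257 CpGs (chr10:62308852-62326339) had 35.4% and 8.35%. The others, in the bromodomain ATPase gene Atad2b, the phosphatase gene Ppm1b and Wdr20, spanned 13443 to 14271 bp, and the highest of the levels was that of Atad2b. All 5 overlapped WGBS gains, from 4 in Atad2b to 14 in Gtf2ird1.

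The ends of the share kept were set mostly by short or intergenic regions. The highest values among regions with at least 10 CpGs were 49.9% near Tmem18, 49.9% at 147811 bp from Tlr4, 49.6% in an intron shared by Lrrc75aos1 and Lrrc75a, 48.6% at 1922 bp from Fgf9 and 47.9% in 4930500H12Rik. The lowest were 1.07% in Gm34047, 3.35% at 82179 bp from St6galnac5, 6.01% in Dennd1a, 8.08% at 118299 bp from Gm43567 and 10.2% in Pja2. In 9 of these 10 regions no WGBS region overlapped, the exception being Dennd1a, where WGBS read 77.5% and 90.7% in Cre- and Tet tcKO. The region near St6galnac5 was 61 bp long and consisted of masked repeat over 100% of its bases. In 235 of the 4575 regions the Tet tcKO level was under 5%, and in 101 it was at least 15%.

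Values at the minimum of 35% were as follows. Just inside were regions near Ccdc126 (35.0009%, 4 CpGs), in Pantr1 (35.0015%, 4 CpGs) and 929 bp upstream of Sag (35.0036%, 6 CpGs), which kept 19.4%, 12.8% and 31.7%. Just outside were regions in introns of Thrap3 (34.9996%, 42 CpGs), Prdm1 (34.9989%, 11 CpGs) and Rab30 (34.997%, 7 CpGs), which kept 22.5%, 38.6% and 14.5%.

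WGBS, which the rule did not use, was read at the same places. Of the 4575 high-5hmC regions, 2350 (51.4%) overlapped a WGBS gain by at least 1 bp, against 24.4% of all autosomal bACE-seq regions and 48.7% of the class of 25 to 35%. Only 1 overlapped a WGBS loss (0.0219%), against 0.136% of all autosomal regions. At the overlapped regions the median WGBS level was 63.5% in Cre- against 85.2% in Tet tcKO, and the median rise was 20.7 points, against 19.3 points in the class of 25 to 35% and 15.9 points in all other losses. At these overlaps modified cytosine as a whole was higher in Tet tcKO, as a gain requires, while 5hmC was lower. All WGBS gains over a high-5hmC region together covered a median of 39.9% of it, so both assays do not describe the same set of CpGs.

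Size bears on these overlaps, since a longer region meets a gain more easily. Regions with a gain had a median of 1235 bp and 13 CpGs, and those without a WGBS region a median of 586 bp and 6 CpGs, at like Cre- levels of 37.4% and 37.7%. Within each size class the order of the sets was kept. Among regions of 10 to under 20 CpGs, 63.7% of the high-5hmC regions overlapped a gain, against 52.9% of the class of 25 to 35% and 28.2% of all other losses. Among those of at least 20 CpGs the shares were 91.6%, 83.1% and 57.9%. Among those with fewer than 6 CpGs they were 25.3%, 19.9% and 9.39%.

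In Cre-, the 5hmC level of the high-5hmC regions came to a median of 60.4% of the WGBS level of the overlapping called regions. The medians were 46.7% in the class of 25 to 35% and 29.3% in all other losses. Below, this ratio is called the share of modified cytosine as 5hmC. The Cre- level enters both the rule and this ratio, so its direction follows in part from the choice. Called WGBS regions often cover only a part of a high-5hmC region, and 2224 regions had none. The WGBS level over the whole region is not known, so the ratio is not a measured share of its modified cytosine. In 1937 of the 2351 regions with a WGBS value (82.4%), the ratio was at least 50%. In 209 regions the 5hmC level exceeded the WGBS level, a share above 100%, whose cause was not tested. The fall in 5hmC, which the rule makes large, exceeded the WGBS rise in 81.4% of the high-5hmC regions with a gain. WGBS minus 5hmC, a rough stand-in for 5mC because both assays do not cover the same CpGs, had a median of 25.1 points in Cre-. In Tet tcKO it was 75.6 points. The medians were 32.7 and 75.5 points in the class of 25 to 35%, and 43.6 and 76.4 points in all other losses. The direction of this gap is fixed in advance by the fall in 5hmC and the limit to WGBS gains.

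**Figure D2:**
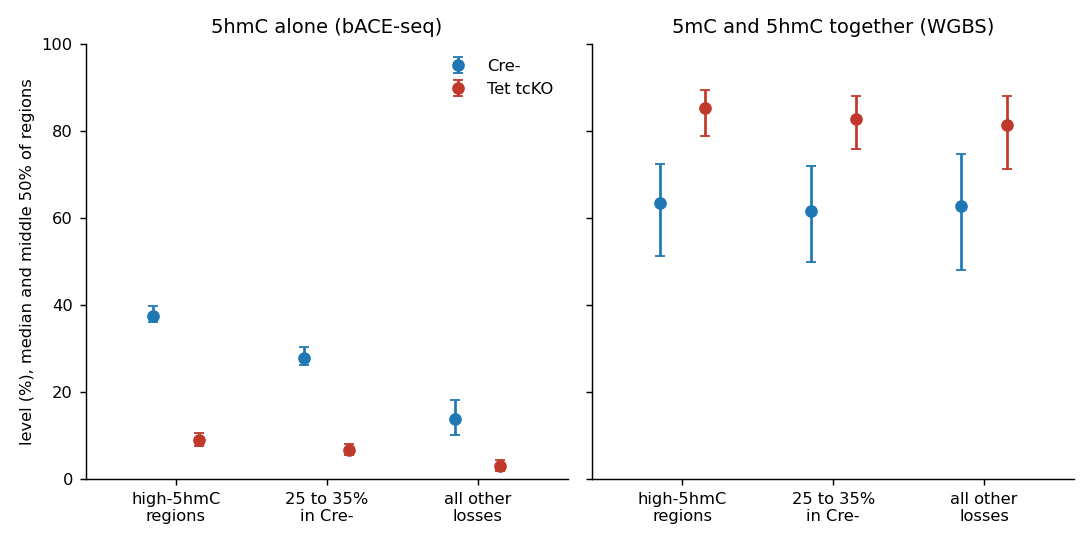
Median level (%, dots) and the range of the middle 50% of regions (bars) in Cre- (blue) and Tet tcKO (red), for 5hmC alone on the left and for 5mC and 5hmC together, at regions that overlap a WGBS gain, on the right. The Cre- 5hmC medians (37.6%, 27.9% and 13.9%) follow from how the sets were chosen, and the WGBS medians in Cre- are 63.5%, 61.6% and 62.8%.

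The largest WGBS rises lay in introns. In Bcl2l1, which encodes the survival factor Bcl-xL, WGBS read 17.4% in Cre- against 68.3% in Tet tcKO (chr2:152816425-152817711, 11 CpGs), while 5hmC was 35.6% and 9.84%. The WGBS level there is below the 5hmC level, and the gain and the 5hmC region do not share their boundaries. The others were in an intron shared by Gm15835 and Cdip1 (21.4% and 71.8%), in Zfp385b (26.4% and 76.3%), in the microtubule regulator gene Ckap5 (38.4% and 86.3%) and in Camk2d, a calcium-dependent kinase gene (24.5% and 72.4%). In all 5 the Cre- WGBS level was below the median of 63.5%. The region over a WGBS loss was in an intron of the potassium channel gene Kcnh1 (chr1:192486546-192487791), with 5hmC at 43.1% and 16.3%. The loss covered 55 bp of it and 12 CpGs, with WGBS at 89.4% in Cre- and 75.5% in Tet tcKO.

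The high-5hmC regions lay within genes. By midpoint, 4109 (89.8%) were inside an annotated gene, against 79.4% of the class of 25 to 35% and 61.1% of all other losses. Introns held 87.0% and exons 2.82%, against 54.6% and 6.53% in all other losses. With promoters taken to reach 2 kb either way from a start site, promoters held 5.81%, gene bodies 85.2% and intergenic sequence 8.98%, where all other losses had 7.58%, 55.8% and 36.6%. The share inside genes rose over every class of Cre- level, from 53.9% below 10% to 84.6% at 30 to 35%.

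Inside protein-coding genes the regions leaned toward the start. Of the 3992 with a protein-coding host, 35.5% lay in the leading 20% of the gene and 7.01% in the last 20%. In all other losses these shares were 19.1% and 21.6%, and in the class of 25 to 35% they were 27.5% and 12.1%. The median distance to the nearest start site was 14503 bp, against 18666 bp in the class of 25 to 35% and 23243 bp in all other losses. Host genes had a median length of 91.1 kb, against 115 kb for all other losses.

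The regions were poor in CpGs. The median density was 1.09 CpGs per 100 bp, against 1.24 in the class of 25 to 35% and 1.75 in all other losses. Of the losses with fewer than 0.75 CpGs per 100 bp, 3.40% were high-5hmC regions, and of those with at least 2.5 only 0.288%. GC content had a median of 42.7%, against 44.4% and 46.8%. A median of 25.6% of the bases were masked as repeats, against 19.8% and 14.8%, and 654 regions (14.3%) were masked over more than 50% of their bases. Those 654 had like 5hmC levels, 38.0% in Cre- and 8.97% in Tet tcKO, against 37.5% and 9.08% in the other 3921. They overlapped a WGBS gain less often, in 33.9% against 54.3%, and were shorter, with a median of 504 bp against 910 bp. The smallest number of CpGs, 4, was found in 704 regions (15.4%), against 11.3% of the class of 25 to 35% and 14.5% of all other losses.

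**Figure D3:**
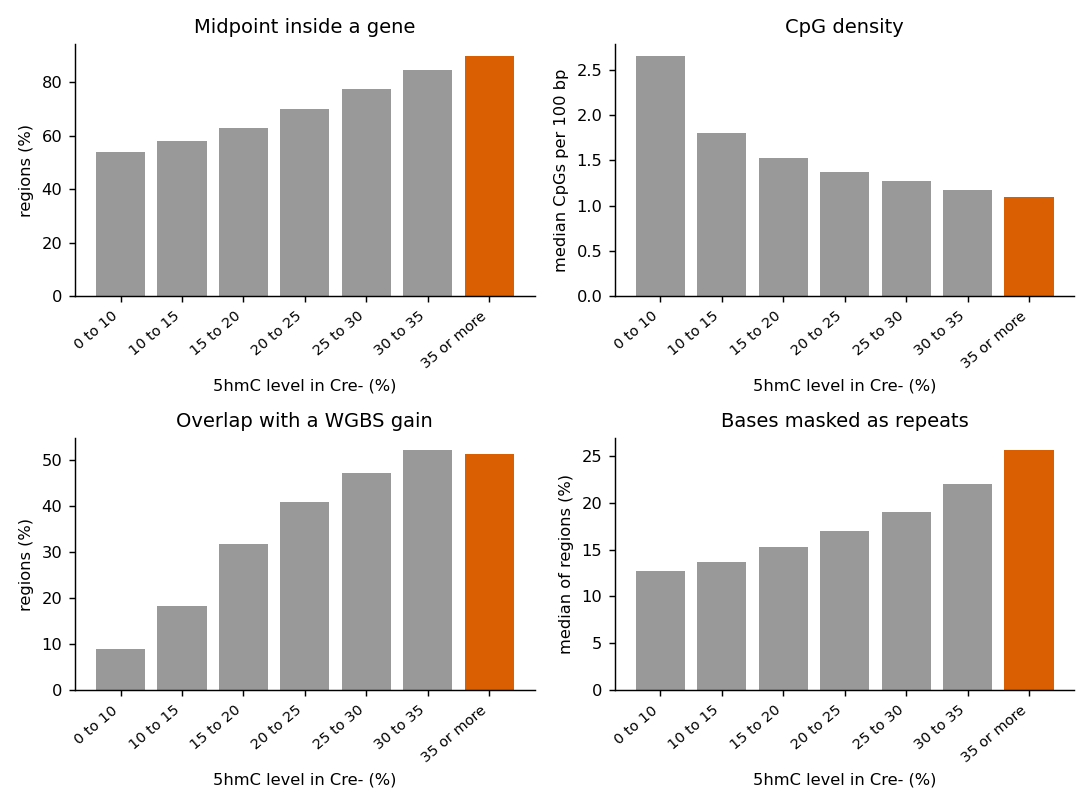
Share of regions with the midpoint inside a gene (%), median CpG density (CpGs per 100 bp), share overlapping a WGBS gain (%) and median share of bases masked as repeats (%), for autosomal losses that kept less than 50%, in classes of Cre- 5hmC level (%). The orange bar is the high-5hmC regions, which continue the order of the lower classes except for the WGBS overlap, 51.4% against 52.2% at 30 to 35%.

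Sequence was compared in the 300 bases around each midpoint, on both strands. TAATCC, the core bound by the photoreceptor factors CRX and OTX2, was in 21.6% of the windows of high-5hmC regions, against 20.0% in the class of 25 to 35% and 14.7% of all autosomal regions. TAATCC is rich in A and T. In windows of 40 to 45% GC alone, the shares were 24.3%, 22.8% and, in all other losses, 17.4%. Repeats were not matched: they masked a median of 25.6% of the bases of high-5hmC regions, against 14.8% in all other losses. The part of repeats in the TAATCC shares was not tested. TGCTGA, found in sites of the rod factor NRL, was in 20.4% of the windows against 22.8% of all regions. AGGTCA, the core of nuclear receptor sites, was in 17.2% against 18.3%, and the E-box CANNTG in 81.5% against 82.0%. In windows of 40 to 45% GC these small differences shrank or turned: TGCTGA was in 20.4% against 21.4% of all other losses, AGGTCA in 17.3% against 17.2% and CANNTG in 82.9% against 81.7%. Matches of different motifs may overlap in a window, and a match does not show that a factor binds.

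The bases that flank the CpGs differed little. Among the 61866 CpGs of the reference in high-5hmC regions, 9.005% were flanked as ACGT and 6.83% as TCGA, against 8.06% and 5.40% in all other losses. GCGG or its complement CCGC made up 10.4% against 12.1%. Of these CpGs, 24.9% were in masked sequence, against 15.3% in all other losses.

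High-5hmC regions occurred in groups. Another such region lay within 5 kb of 1772 of them (38.7%) and within 100 kb of 3458 (75.6%). These counts were not made for other sets. The other losses near them had higher levels than those farther away. Within 1 kb their median Cre- level was 26.1%, at 5 to 20 kb it was 18.3%, and beyond 100 kb it was 13.2%. The share kept by these neighbours changed less, from 25.1% within 1 kb to 22.4% beyond 100 kb. A fall with distance was not particular to the high-5hmC regions. Around the class of 25 to 35%, the median Cre- level of other losses was 18.4% within 1 kb. It was 14.2% at 5 to 20 kb and 11.6% beyond 100 kb. DSS smooths levels along the genome before it calls regions, so neighbouring values are not independent. By chromosome, the regions numbered from 1.42 per 10000 CpGs on chromosome 8 to 3.30 on chromosome 9.

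**Figure D4:**
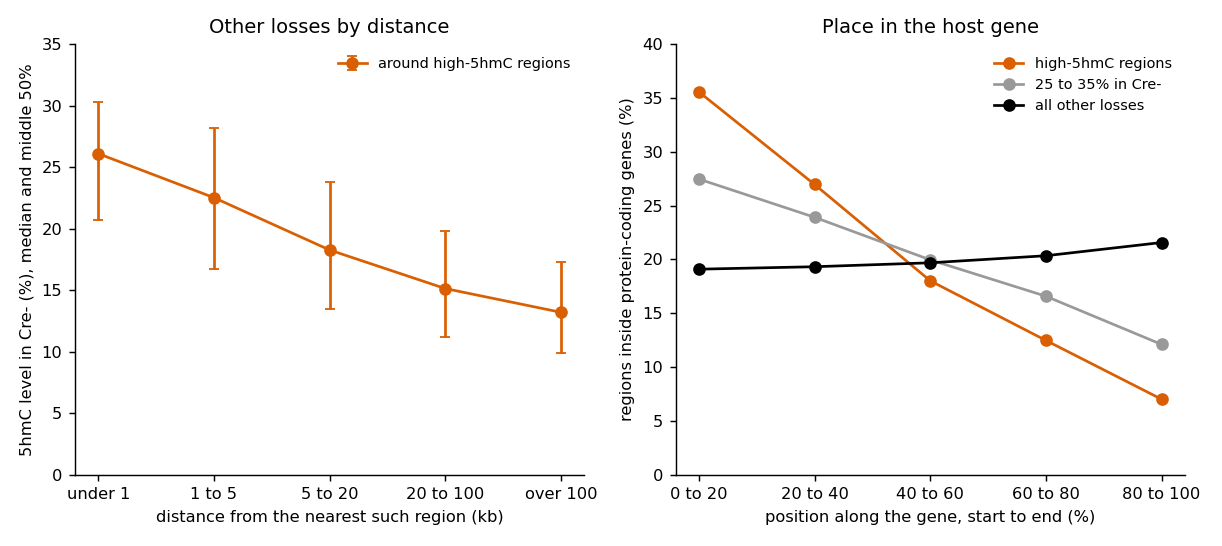
Left, Cre- 5hmC level (%, median and middle 50%) of the other losses by distance (kb) from the nearest high-5hmC region. Right, share of the regions inside protein-coding genes (%) that lie in each 20% of the gene from start to end: 35.5% of high-5hmC regions are in the leading part, against 19.1% of all other losses.

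The largest group, with gaps of at most 20 kb, was in Nlk, the gene of Nemo-like kinase. It held 18 regions with 243 CpGs over 91.1 kb of the gene (chr11:78586624-78677692), with Cre- levels from 35.2% to 46.1%. In Tet tcKO the regions of Nlk had levels from 4.44% to 12.7%, so the genotypes did not overlap, which the rule itself fixes. WGBS gains overlapped 10 of the 18, with a median rise of 19.9 points.

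In all, 2049 genes held the midpoint of at least 1 high-5hmC region, 1870 of them protein-coding. Most, 1167, held 1 region, 183 held at least 5 and 37 held at least 10. Long genes were more often among them: 1.81% of protein-coding genes under 10 kb had a region in the body or within 5 kb, 18.7% of those of 30 to 100 kb and 34.6% of those over 300 kb. Over all autosomal protein-coding genes the share was 2160 of 20807 (10.4%).

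By number, Fgfr2 came first with 26, but its gene model spans 2961 kb and all 26 also lay in another gene. The same holds for Gm20388, a model of 4435 kb where 14 of 15 regions lay in another gene. Cadm2, a synaptic adhesion gene of 965 kb, held 23 regions with a median Cre- level of 38.5%, of which 6 overlapped a WGBS gain. Jarid2, a partner of the Polycomb repressive complex that methylates histone H3 lysine 27, held 19 regions in 192 kb, and they covered 22.4% of the gene. Their median levels were 39.2% in Cre- and 10.2% in Tet tcKO, and 14 overlapped a WGBS gain with a median rise of 19.6 points. In Nlk the 18 regions covered 25.3% of the gene. The neural adhesion gene Ncam1 held 17 (median 37.8% in Cre-) and Celf2 held 16 (37.1%). Tnrc6b, a scaffold of microRNA silencing, and Ncoa1, a coactivator of nuclear receptors, held 15 each, and Ppp2r5e, a subunit of protein phosphatase 2A, held 14. In these 3 genes 8, 7 and 9 regions overlapped a WGBS gain. The adhesion gene Cadm1 also held 14, with fewer CpGs (218 against 221), and 11 of them overlapped a gain.

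Listed genes of the retina were counted when a high-5hmC region lay in the body or within 5 kb. Since long genes have more such regions, the median gene length of each list is given beside its count, and the share over all protein-coding genes is 10.4%. Counts over lists of 4 to 20 genes move by several points with 1 gene. They also depend on the minimum: over the 57 listed photoreceptor genes the share with a region was 31.6% at 35%, but 64.9% at 30% and 12.3% at 40%. Among 15 photoreceptor transcription factors, 6 had a region (median length 29.7 kb). Rorb, a nuclear receptor needed for rod and cone differentiation, had 9 of its 54 losses among them. All 9 were intronic, from 79.6 to 144 kb from the start site, with Cre- levels from 35.3% to 43.3% and Tet tcKO levels from 6.68% to 13.9%. The widest of them, chr19:18988499-18991216 with 25 CpGs, was at 38.9% and 10.1% in 5hmC and rose by 22.3 points to 87.4% in WGBS. Prdm1, which keeps photoreceptor precursors from the bipolar fate, had 3 regions. The widest held 52 CpGs (chr10:44460612-44464526) at 38.2% and 8.44%, and the WGBS level rose by 19.6 points to 61.8%.

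Mef2d, a regulator of photoreceptor genes, had 2 intronic regions at 39.9% and 39.0% in Cre-. The one of 42 CpGs (chr3:88154215-88156774) was at 10.7% in Tet tcKO, with a WGBS rise of 28.8 points. Samd7, which silences non-rod genes in rods, had 1 region 1179 bp upstream of its start (38.6% and 10.1%) and 1 in an intron (38.0% and 16.01%). Thrb, the receptor that directs the M cone opsin, had 2 of 111 losses in the set, at 36.9% and 35.2% in Cre-. Crx, the homeobox factor of all photoreceptors and a gene named after its values were seen, had 1 region 4219 bp past the end of the gene, the one whose middle is shown above (chr7:15860287-15863170, 29 CpGs). Its Cre- and Tet tcKO levels were 39.6% and 8.89% in 5hmC, and 67.2% and 86.4% in WGBS. Otx2, Nrl and Nr2e3 had 5hmC losses but no high-5hmC region.

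**Figure D5:**
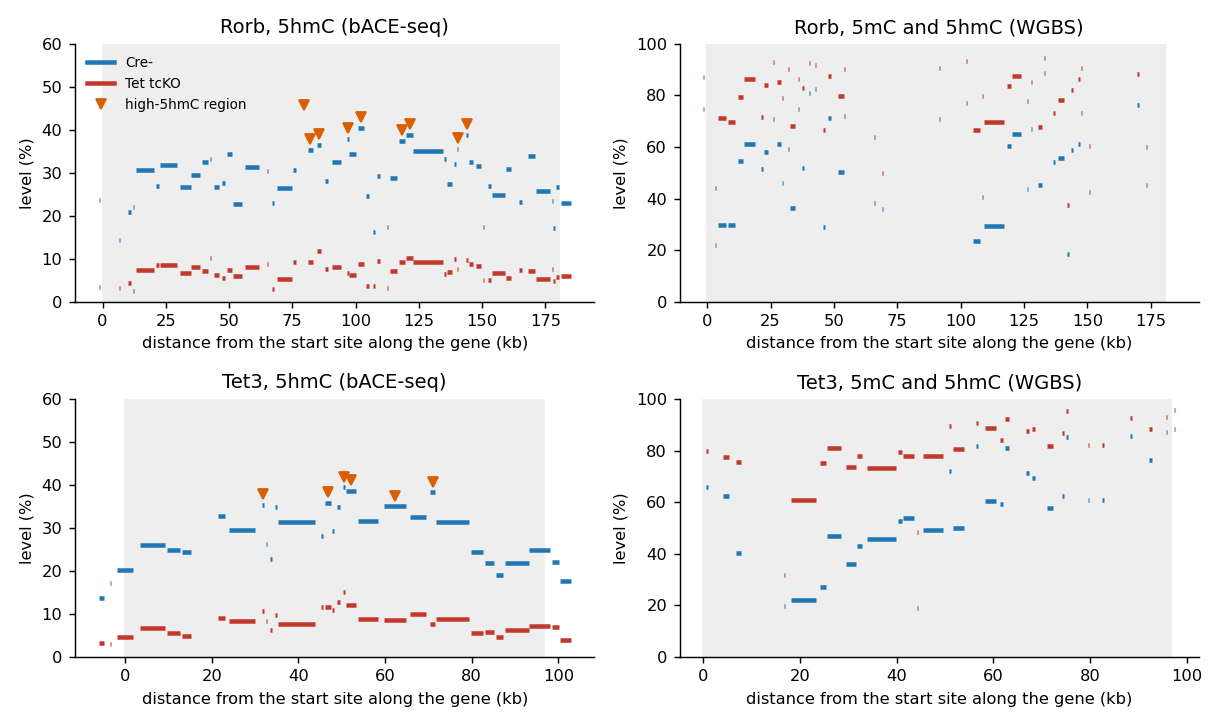
Regions of bACE-seq (left) and WGBS (right) at Rorb and Tet3 by distance from the start site along the gene (kb), each drawn at its level (%) in Cre- (blue) and Tet tcKO (red). The gene is shaded, orange triangles mark the high-5hmC regions, and at Rorb these lie between 79.6 and 144 kb, where every red bar is below the blue one in 5hmC and above it in WGBS.

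Of 20 rod phototransduction and outer segment genes, 5 had a region (median length 22.8 kb). Gnb1, the transducin beta subunit, had 6 of 27 losses, with Cre- levels from 35.04% to 39.6%. The widest spanned 11052 bp and 105 CpGs of an intron (chr4:155499815-155510866) at 35.04% and 9.85%, and WGBS rose by 28.2 points to 88.7%. Sag, the rod arrestin gene, had 3, all outside the gene body. The one between Sag and Dgkd, whose middle is shown above (chr1:87850015-87851944, 18 CpGs), was at 41.9% and 9.34% in 5hmC and at 34.3% and 68.8% in WGBS. Prom1, needed for outer segment discs, had 2 in introns that also lie in Gm42716 (36.1% and 40.03% in Cre-). Gngt1, the rod transducin gamma subunit, had 1 at 43.0% and 10.6%, 176 bp past the end of the gene, and Rom1, an outer segment tetraspanin gene, had 1 that lay in the neighbouring B3gat3. Of 10 cone phototransduction genes (median length 21.2 kb) only Gngt2, the cone transducin gamma subunit, had a region, at 35.9% and 7.82%.

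Of 12 ribbon synapse genes, 6 had a region, and this list has the longest genes (median 126 kb). Pclo, a scaffold of the active zone, had 4 of 93 losses, with the highest level of the listed genes at 50.7% in Cre- and 8.04% in Tet tcKO, over 5 CpGs. Ctbp2, which encodes the ribbon protein RIBEYE, and Unc13b, a vesicle priming factor, had 3 each. Of those at Ctbp2, 1 (42.7% in Cre-) lay outside its body, in an untranslated part of the neighbouring Zranb1. In Ctbp2 the WGBS level of an intronic region (chr7:133016161-133017157, 17 CpGs) was 36.8% in Cre- but 76.1% in Tet tcKO. Rims1, Rims2 and Cacna2d4 had 1 each. Of 6 listed genes of chromatin organisation (Lbr, Lmna, Casz1, Ctcf, Hmgn1 and Satb1), 4 had a region (median length 38.1 kb). Ctcf, the insulator protein, had 5 of 26 losses, with Cre- levels from 37.1% to 46.6% and Tet tcKO levels from 6.18% to 12.9%. Hmgn1, Satb1 and Casz1 had 1 each, and the one at Hmgn1 was 5346 bp long with 54 CpGs (37.1% and 8.42%). Of 11 autosomal genes of aerobic glycolysis (median length 14.2 kb), Ldha (35.4% and 7.14%) and the lactate transporter gene Slc16a1 (35.9% and 6.64%) had 1 each.

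Lists of other retinal cells held few high-5hmC regions, and the part of gene length in these counts was not tested. Of all protein-coding genes under 10 kb 1.81% had a region, of those of 10 to 30 kb 6.08% and of 30 to 100 kb 18.7%. Counts in lists this small give no result about a cell type. None of the 10 genes of Muller glia (median length 12.6 kb), 11 of amacrine (30.7 kb), 10 of ganglion (5.78 kb) and 4 of horizontal cells (39.7 kb) had a region. Nor did the 8 of vascular endothelium (68.4 kb) or the 10 of retinal progenitors (8.996 kb). Nearly all of these genes had 5hmC losses of lower level: all 10 Muller genes did, with a median highest Cre- level of 24.7%, and 7 of the 10 ganglion genes, with 15.99%. Prkca, a kinase that marks rod bipolar cells, had 2 of 177 losses in the set (37.8% and 35.4% in Cre-) and was the only 1 of 10 bipolar genes (median length 20.6 kb). C1qa was the only 1 of 10 microglial genes (6.42 kb), with a region of 4 CpGs at 37.0% upstream of the gene. Among photoreceptor transcription factors, rod genes and ribbon synapse genes the median highest Cre- level was 33.4%, 32.3% and 34.8%. Among cone phototransduction genes it was 25.1%, near the 25.8% of microglial, 24.3% of progenitor and 24.0% of endothelial genes. Horizontal, bipolar and amacrine genes had 23.8%, 20.9% and 18.4%. Housekeeping genes, with a median length of 8.27 kb, had a region in 3 of 10: Polr2a (2), Ywhaz and Rps3, with a median highest level of 30.2%. The region counted for Rps3 lay outside its body, in a coding exon of the neighbouring Klhl35.

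Of 13 genes of cytosine modification and repair, 3 had a region (median length 38.3 kb). Tet3, itself deleted in Tet tcKO, had 6 of its 32 losses in the set, all in introns between 31.6 and 71.5 kb from the start site. The widest held 74 CpGs (chr6:83394128-83399400) at 35.1% in Cre- and 8.61% in Tet tcKO. WGBS gains overlapped all 6, with rises from 17.6 to 36.4 points. Tet2 had 1 region at 43.8% and 10.9% with no WGBS value. Dnmt3a, a de novo methyltransferase gene, had 1 of 43 CpGs at 35.7% and 9.03%. Tet1 had 5hmC losses and no high-5hmC region. Reads over the deleted exons were not analysed here.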

How the data were processed

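DNA of whole P21 retinas was profiled by bACE-seq and WGBS, each with 3 libraries of Cre- and 3 of Tet tcKO, grouped by the sample labels. Per the study's methods, reads were trimmed with Trim Galore (0.4.4), aligned to mm10 with Bismark (0.18.2), filtered at a mapping quality of 10 with SAMtools (1.15.1), stripped of duplicates with Picard (GATK 4.1.3) and counted per CpG with MethylDackel (0.6.1). DSS (2.48.0) smoothed the levels and called regions from CpGs past its threshold of 0.01, with minimums of 3 CpGs and 50 bp. The deposited lists give, for each region, the authors' mean of each genotype as a fraction from 0 to 1, printed here as a percentage. Which column is which genotype follows the order in the lists' names. The deposited difference and area statistic hold the authors' own comparison and were not used.

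Regions were compared with GRCm38, where 100% started and ended on a CpG, and with GENCODE M21 genes (Python 3.11.15, pandas 2.3.3, scripts tested on simulated data). An overlap needed 1 bp, and a region with several WGBS regions took their mean weighted by CpGs. Genes were taken by midpoint. Depth per sample is not given in the lists, so the precision of a level is unknown. With 1 mean per genotype no test was run.

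The regions, gene lists and alternatives were chosen with earlier results of these data known. Named were the 10 highest in Cre-, the 5 longest, the 5 at each end of the share kept (10 CpGs or more for highest and share kept), the 5 largest WGBS rises, any over a WGBS loss, 3 on each side of 35%, the 10 genes with most regions, and up to 5 genes per list by number of regions, ties included. Some genes were left out of the lists before any value was computed, and a named region and a sequence are not reported here. Of 171 listed genes, Pgk1 is not autosomal.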

Additional observations from a re-analysis of the deposited data

How the results depend on the processing

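For the 9 results 69 alternative values were obtained. Of these, 28 stayed within the 95% interval over regions, or over genes for the listed genes (counts, within 1.5 times), while 41 moved further. The interval treats regions as independent, which neighbouring regions are not. It does not measure the error between libraries and serves only as a yardstick. A minimum of 30% in Cre- gave 15284 regions, 24.1% kept, 55.2% of modified cytosine as 5hmC, 80.7% in gene bodies, 6.85% in promoters, 1.149 CpGs per 100 bp and 64.9% of the 57 listed photoreceptor genes with a region (18, or 31.6%, at 35%). A minimum of 40% gave 1111 regions, 23.2% kept, 45.6% on a WGBS gain, 65.4% of modified cytosine as 5hmC, 89.3% in gene bodies, 4.59% in promoters and 12.3% of photoreceptor genes. With at least 10 CpGs, 1956 regions were left, with 24.5% kept, 75.1% on a WGBS gain, 89.4% in gene bodies, 4.81% in promoters and 1.03 CpGs per 100 bp. With at least 200 bp, 53.6% were on a gain and 86.5% in gene bodies, at 1.04 CpGs per 100 bp. Gains over at least 50% of a region left 17.7%, and gains of at least 20 points left 30.3%, with a median rise of 26.7 points. These settings were not applied to the other sets, so whether the order of the sets holds there is unknown. Means weighted by CpGs gave 24.5% kept, a WGBS rise of 21.5 points and 65.5% of modified cytosine as 5hmC. Subtracting 1 point of assumed unconverted cytosine gave 21.7% kept and 59.0% of modified cytosine as 5hmC, and 2 points gave 19.6% and 57.4%. The paper estimates about 2% unconverted, and the subtraction was made for the high-5hmC regions alone. Promoters of 1 kb held 1.79% (gene bodies 88.5%), those of 5 kb held 20.8% (71.4%), and by bases the shares were 4.83% and 90.3%. Leaving out regions masked over more than 50%, an alternative chosen after seeing the data, gave 54.3% on a gain and 1.07 CpGs per 100 bp. No paired analysis was possible because the lists hold 1 mean per genotype, and for the same reason no library could be left out.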

Other observations

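Outside the rule, 55 autosomal regions had at least 35% 5hmC in Cre- and kept 50% or more of it in Tet tcKO. Their median levels were 39.9% and 23.3%, the highest Cre- level was 71.9%, and 1 of them was higher in Tet tcKO. They were short and dense, with a median of 222 bp and 4.50 CpGs per 100 bp, and a median of 44.8% of their bases was masked as repeats. Of the 55, 31 (56.4%) were inside a gene, against 61.3% of all autosomal regions. A WGBS gain overlapped 11 of the 55, where 24.4% of all autosomal regions overlapped one. Neither count is far from the share over all regions, and neither is read as a result about these 55. The nearest to the limit were in introns of Lrmda (40.3% in Cre- and 20.2% in Tet tcKO) and Plppr1 (46.4% and 23.3%).

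On chromosome X, 22 of 10325 regions (0.213%) met the levels of the rule, against 0.785% on the autosomes, at a median of 37.5% in Cre- against 7.98% in Tet tcKO.

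By the share of the gene covered, the order of genes was another than by number. High-5hmC regions covered 58.4% of Ube2v1, a gene of 24.5 kb whose 2 regions also lay in another gene. They covered 57.2% of the kinase gene Stk35 (31.8 kb, 2 regions and 148 CpGs), 47.0% of the ubiquitin ligase gene Siah1a (21.9 kb, 5 regions), 43.5% of Cnot6, of the CCR4-NOT deadenylase complex (41.2 kb, 8 regions), and 42.0% of Hnrnpu, which encodes a nuclear RNA-binding protein (16.7 kb, 2 regions). Median WGBS rises in Ube2v1, Stk35, Siah1a, Cnot6 and Hnrnpu were 18.8, 35.7, 31.5, 34.6 and 20.8 points, against 20.7 points over all high-5hmC regions with a gain. These genes were chosen after their values were seen.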
